A study of Homo sapiens with 6 samples.

Results

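The genes described here encode the stress ligands of NKG2D, an activating receptor of natural killer (NK) cells and of CD8 T cells. The set was fixed by name as MICA, MICB, ULBP1, ULBP2 and ULBP3, and 4 of the 5 are among the 25330 gene symbols of the count table. ULBP1 was not analysed here. All libraries came from the triple-negative breast cancer line MDA-MB-231. There were 3 RNASEH2A KO libraries (RN1) and 3 CTRV2 control libraries, described as wild type, each group from 3 passages with no treatment named and all in 1 batch. RNASEH2A encodes the catalytic part of RNase H2, which takes ribonucleotides out of DNA. The sources used here do not say whether the knockout cells are 1 clone or a pool, nor what the name CTRV2 stands for.

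NKG2D ligands resemble MHC class I molecules but present no peptide. MICA and MICB are transmembrane proteins with an immunoglobulin-like domain next to the membrane, which the ULBP proteins lack, and ULBP2 and ULBP3 are held in the membrane by a GPI anchor. Most healthy cells show little of these proteins on their surface, and DNA damage signalling through ATM and ATR, heat shock and other stress are known to raise them. The study's title joins replication stress and DNA damage with antitumour immunity, so the question for these genes is whether their transcripts differ when RNase H2 is targeted.

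Library totals ran from 25419877 to 31596286 counts. RNASEH2A itself had 7, 8 and 16 counts in the libraries labelled knockout, against 10, 6 and 15 counts in the control libraries. These counts do not check the genotype labels, so each direction below rests on the labels alone. Why they were this low in control cells too was not tested, so they do not show that the line lacks the transcript. The other subunits of the enzyme did not pass: RNASEH2B stood at 34.9 ± 4.07 CPM in knockout cells and 39.1 ± 2.66 CPM in control cells (edgeR adjusted p = 0.334), and RNASEH2C at 85.3 ± 5.29 CPM in knockout cells and 77.3 ± 2.75 CPM in control cells (adjusted p = 0.232, SD, n = 3 each). Of the carcinoma line markers, KRT8, KRT18, KRT19, EPCAM and VIM were all counted in every library. The oestrogen receptor gene ESR1 and the keratin gene KRT5 had 0 counts in all 6. ERBB2 stood at 120.1 ± 9.77 CPM in knockout cells and 115.8 ± 5.95 CPM in control cells (edgeR adjusted p = 0.715). The progesterone receptor gene PGR, below the count filter, had 10, 12 and 8 counts in knockout libraries, against 0, 2 and 0 in control libraries. KRT14 had 0 counts in all knockout libraries and 0, 4 and 6 in control libraries. Of 11 counted lymphocyte markers, 9 had at most 3 counts in every library, and HCST, which encodes the signalling partner of NKG2D, had 0 counts in all 6. KLRK1, the NKG2D gene itself, had 2 counts in knockout library 1 and 0 in the other libraries, and PTPRC, the pan-leukocyte gene CD45, had 0 counts in all knockout libraries and 6, 4 and 6 counts in control libraries.

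MICA (NCBI gene 100507436) and MICB (NCBI gene 4277) are neighbours in the MHC class I region of chromosome 6. In RefSeq on GRCh38.p14, MICA spans chr6:31400711-31415315 and MICB spans chr6:31494918-31511124, both on the plus strand. ULBP2 (chr6:149942014-149949235, plus strand) and ULBP3 (chr6:150061053-150069121, minus strand) lie in the RAET1 cluster on the long arm of the same chromosome. The RefSeq promoters of MICA (chr6:31403345-31403644) and MICB (chr6:31497895-31498194) are shown because these paralogues stand side by side and gave different test results. Each window takes 250 bases before and 50 after a start on the plus strand, chr6:31403595 for MICA and chr6:31498145 for MICB. These starts lie inside the gene spans above, so the windows do not cover the starts of those spans. Capitals mark a heat shock element core (GAANNTTC), a GC box (GGGCGG) and a CCAAT box (CCAAT), each searched on both strands, and no marked motifs overlap.
MICA promoter: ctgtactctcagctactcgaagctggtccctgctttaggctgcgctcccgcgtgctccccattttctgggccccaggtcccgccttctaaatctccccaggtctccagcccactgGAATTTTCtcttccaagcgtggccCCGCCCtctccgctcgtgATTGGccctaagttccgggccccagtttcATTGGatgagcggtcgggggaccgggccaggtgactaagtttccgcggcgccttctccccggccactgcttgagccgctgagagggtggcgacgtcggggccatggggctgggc
MICB promoter: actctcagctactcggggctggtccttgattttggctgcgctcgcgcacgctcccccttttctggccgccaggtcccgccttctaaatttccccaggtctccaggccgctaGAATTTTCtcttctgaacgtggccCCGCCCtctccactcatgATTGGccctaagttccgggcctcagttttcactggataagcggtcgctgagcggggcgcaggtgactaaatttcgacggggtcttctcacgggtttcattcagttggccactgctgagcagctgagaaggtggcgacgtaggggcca
The MICA and MICB promoters were identical at 246 of 284 aligned bases, or 86.6%. Each holds 1 heat shock element core, a motif found in 6.77% of the 35116 RefSeq promoters searched. Each also holds 1 GC box, found in 45.0% of promoters, and the CCAAT box, found in 34.6%, occurs at 2 places in MICA and at 1 in MICB. In the ULBP2 promoter the GC box occurs once, the CCAAT box once, the CRE core TGACG at 3 places (24.6% of promoters) and the C/EBP-ATF element TGATGNAA once (3.62% of promoters). The ULBP3 promoter holds 6 GC boxes. The AP-1 site TGANTCA occurs once each in ULBP2 and ULBP3, in neither MIC promoter, and in 7.71% of all promoters. The E2F site TTTCGCGC, the ISRE core (GAAA, any 2 bases, GAAA) and the other heat shock arrangement TTCNNGAA were not found in the promoters of these 4 genes, against 0.515%, 3.57% and 7.74% of all promoters. These matches describe letters in the window only.

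MICB was the only one of the 4 counted ligands whose transcript rose in knockout cells by the test across all genes. MICB stood at 116.9, 124.4 and 120.6 CPM (the count scaled to a common library size, with the TMM factors of edgeR) in the knockout libraries, against 87.98, 102.3 and 101.8 CPM in the control libraries. Every knockout library was above every control library, a pattern found in 16.1% of all tested genes, and the knockout libraries lay close together. The means were 120.6 ± 3.77 CPM in knockout cells and 97.4 ± 8.13 CPM in control cells (SD, n = 3 each). This is a log2 fold change of 0.31 ± 0.08 (SE), or 1.24-fold, with an edgeR quasi-likelihood adjusted p of 0.0283. So 1 of 4 tested members passed, where 12.1% of the 14199 tested genes passed in either direction, 5.88% as higher and 6.22% as lower in knockout cells. The median log2 fold change of the 4 genes was 0.14, beside 0.00 (0.0035) over all tested genes. In bulk libraries, fewer cells with a transcript and less transcript per cell cannot be told apart.

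The MICB call did not hold without single libraries. It was lost without control library 1, 2 or 3, or without knockout library 2 or 3, with adjusted p between 0.0638 and 0.110, and held without knockout library 1 (0.00697). Over all tested genes, calls fell from 1718 to 1055, 649 and 550 without control library 1, 2 and 3. They fell to 1457 and 524 without knockout library 2 and 3, and rose to 3430 without knockout library 1. Calls of other genes given below without single libraries come from the same fits. Over all 17 alternative fits the edgeR, DESeq2 or limma adjusted p ran from 0.00420 to 0.426. The log2 fold change of MICB lay between 0.24 and 0.35 when each library was left out, and between 0.11 and 0.14 in the fits that subtract the median fold change of neighbouring genes.

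MICA, the closest relative of MICB, showed no detectable difference. It stood at 72.75, 81.55 and 100.3 CPM in knockout libraries, against 65.78, 96.14 and 88.08 CPM in control libraries. The groups overlapped, and each had its lowest value in library 1. The log2 fold change was 0.03 ± 0.15 (SE, 95% interval -0.31 to 0.36, edgeR adjusted p = 0.930). This interval still includes the size of the MICB change. MICA changed sign without control library 1 (-0.12) and without knockout library 3 (-0.11).

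The difference between the MIC paralogues was tested within libraries. There were 1.606, 1.525 and 1.203 MICB counts for each MICA count in knockout libraries, against 1.338, 1.064 and 1.156 in control libraries. The groups overlapped, because knockout library 3 was below control library 1. The log2 ratio was 0.28 higher in knockout libraries (exact two-sided permutation p = 0.2, and 0.4 adjusted over the 2 ratios tested). With 3 against 3 libraries the smallest p possible is 0.1, so these data do not show that MICB responded differently from MICA. Reads of these paralogues can mostly be told apart, since 1.61% of the 50-base stretches in GENCODE 29 transcripts of MICB also occur in MICA transcripts, and none of the 100-base stretches do.

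ULBP2 did not pass. It stood at 18.69, 22.43 and 22.68 CPM in knockout libraries, against 15.02, 18.83 and 19.9975 CPM in control libraries. Knockout library 1 lay among the controls, and the other knockout libraries were above all of them. The log2 fold change was 0.24 ± 0.13 (SE, 95% interval -0.04 to 0.53, edgeR adjusted p = 0.251). The value was positive in all 17 alternative fits, and ULBP2 passed in none of them (adjusted p from 0.0523 to 0.554). Of the 50-base stretches in ULBP2 transcripts, 29.4% also occur in RAET1L, so the split of reads between these genes is uncertain. RAET1L had only 4, 6 and 4 counts in knockout libraries and 5, 8 and 2 in control libraries.

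ULBP3 varied most between libraries among the 4 genes. It stood at 7.60, 13.1 and 14.5 CPM in knockout libraries, against 10.5, 15.5 and 13.6 CPM in control libraries. The groups overlapped, and knockout library 1 was the lowest of the 6. The log2 fold change was -0.18 ± 0.23 (SE, 95% interval -0.69 to 0.34, edgeR adjusted p = 0.667). Without knockout library 1 the log2 fold change was 0.06, so the sign rests on that library. Of the 50-base stretches in ULBP3 transcripts, 12.35% also occur in the pseudogene RAET1K.

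**Figure D1:**
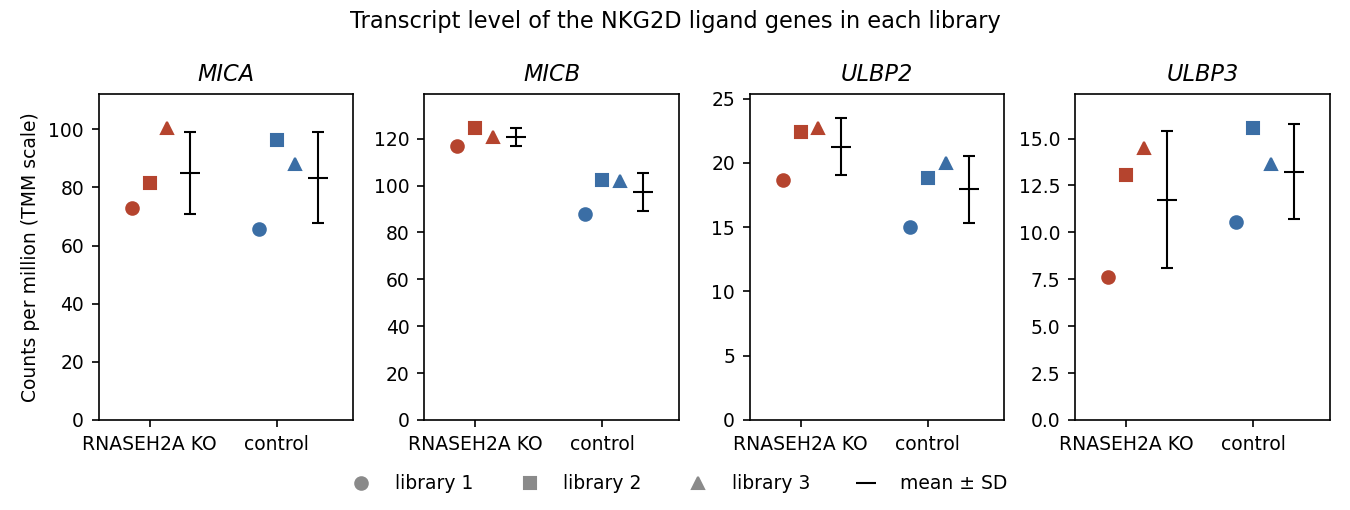
Transcript levels of MICA, MICB, ULBP2 and ULBP3 in CPM on the TMM scale (vertical axis, from 0) in 3 RNASEH2A KO libraries and 3 control libraries. Each point is a library, and the bar beside each group is the mean ± SD. In MICB all knockout points lie above all control points, and library 1 is the lowest point of its group in every panel.

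Library 1 of each group was the lowest of its group for all 4 genes. The coefficient of variation among knockout libraries ran from 3.12% for MICB to 31.1% for ULBP3, and among control libraries from 8.35% for MICB to 19.1% for ULBP3. Across the 6 libraries, Pearson's r of log2 CPM was 0.87 between MICB and ULBP2, 0.79 between MICA and ULBP3, 0.72 between MICA and ULBP2 and 0.01 between MICB and ULBP3. Within the families r was 0.41 between MICA and MICB and 0.44 between ULBP2 and ULBP3. These values share their library scaling and include the genotype difference, and they are a description of 6 points. Of tested genes with a mean of at least 5 CPM, the profiles most like MICA were those of NUDT16L2P (r = 0.99), VPS35L (0.97) and SEC23B (0.97). The profiles most like MICB were those of RETREG2, DNASE1L1 and LRRC37B (0.9993, 0.9977 and 0.9972). Those most like ULBP2 were CPED1, DCAKD and KDELR1 (0.9979, 0.9954 and 0.993), and those most like ULBP3 were GPC1, TLR3 and CHMP2A (0.9969, 0.9961 and 0.9957). All are the highest r picked from every gene searched, again over 6 points. Whether these genes vary with the ligands beyond that choice was not tested.

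Levels were also set per kilobase of GENCODE 29 exon, the scale on which genes can be compared. MICB had 46.6 ± 1.45 CPM per kb in knockout cells and 37.6 ± 3.14 in control cells (SD, n = 3 each). MICA had 35.6 ± 5.89 CPM per kb in knockout cells and 34.9 ± 6.59 in control cells. Within libraries, MICB was above MICA in every knockout library and in control libraries 1 and 3. In control library 2 it was just below MICA (39.50 against 40.29 CPM per kb). ULBP2 had 15.8 ± 1.66 CPM per kb in knockout cells and 13.3 ± 1.93 in control cells, and ULBP3 had 11.9 ± 3.69 in knockout cells and 13.4 ± 2.56 in control cells. The ULBP genes overlapped each other in both groups. Within libraries, ULBP2 was above ULBP3 in every knockout library and in control libraries 1 and 3. In control library 2 ULBP2 was below ULBP3 (13.96 against 15.73 CPM per kb). Both ULBP genes lay below the MIC genes in all 6 libraries. Of the summed CPM of the 4 ligands, MICB made up 54.1%, 51.5% and 46.7% in knockout libraries, against 49.1%, 43.9% and 45.5% in control libraries. There were 7.21, 5.80 and 5.94 MIC counts for each ULBP2 or ULBP3 count in knockout libraries, against 6.02, 5.77 and 5.64 in control libraries (log2 difference 0.11, exact two-sided permutation p = 0.4, and 0.4 adjusted). The smallest p possible in this test is 0.1.

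Further NKG2D ligands are encoded beside the ULBP genes, and 0 of the 2 tested passed in edgeR, where 12.1% of all tested genes did. DESeq2 and limma-voom also called 0, and 0 had an unadjusted p under 0.05 in any of these fits. RAET1G, or ULBP5, had 3.99, 4.13 and 3.78 CPM in knockout libraries, against 3.51, 2.21 and 3.37 CPM in control libraries. Its groups did not overlap, a pattern found as higher in knockout cells in 16.1% of all tested genes. The log2 fold change of RAET1G was 0.39 ± 0.21 (SE, edgeR adjusted p = 0.263). Of its exonic bases 9.29% overlap a gene on the other strand, and the strand setting of the counting is not known. Of the 50-base stretches in RAET1G transcripts, 10.2% also occur in ULBP2, so some of its reads may not be its own. RAET1E, or ULBP4, had 0.810, 1.55 and 0.784 CPM in knockout libraries, against 0.810, 1.19 and 0.913 CPM in control libraries, and did not pass (log2 fold change 0.10 ± 0.36, adjusted p = 0.886). In GENCODE 29, 41.1% of the exonic bases of RAET1E are shared with other genes on the same strand, so its reads are uncertain. RAET1L, or ULBP6, was below the count filter (exact two-sided permutation p = 1, where 0.1 is the smallest possible).

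The MIC genes and the ULBP genes sit among neighbours on chromosome 6 whose median fold changes had opposite signs. The 10 tested genes on each side of MICB had a median log2 fold change of 0.20, with 18 of 20 above 0 and 3 called higher. Around MICA the median was 0.18, with 17 of 20 above 0 and 4 called higher, MICB among them. Around ULBP2 the median was -0.24, with 3 of 20 above 0 and 5 called lower. Around ULBP3 the median was -0.28, with 4 of 20 above 0 and 5 called lower. The MICA and MICB neighbours are partly the same genes, and so are those of ULBP2 and ULBP3. Within 2 Mb of MICB, 122 other tested genes had a median of 0.19, with 98 above 0, 20 called higher and 3 called lower (18.9% called). Within 2 Mb of ULBP2, 19 other tested genes had a median of -0.16, with 4 above 0, 0 called higher and 4 called lower (21.1% called). Beside these counts, 12.1% of all tested genes were called, 5.88% as higher and 6.22% as lower.

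The tested genes on either side of MICA both rose. HLA-B, the class I heavy chain gene before it, had 1708, 1798 and 1934 CPM in knockout libraries, against 1138, 1264 and 1242 CPM in control libraries. HLA-B rose by 0.58 ± 0.07 on the log2 scale (SE, edgeR adjusted p = 0.00103). Reads of class I genes, HLA-E included, can be shared between paralogues, which makes their values uncertain. HCP5, a long non-coding RNA gene after it, had 26.7, 37.4 and 33.1 CPM in knockout libraries, against 14.1, 22.2 and 19.0 CPM in control libraries, and rose by 0.81 ± 0.17 (adjusted p = 0.0156). The HCP5 call was lost without control library 3 (adjusted p = 0.0675) or knockout library 3 (0.0781). Whether the MICA change differs from theirs was not tested.

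MICB-DT, a non-coding transcript that diverges from the start of the MICB span, had 2.15, 1.62 and 1.82 CPM in knockout libraries, against 1.35, 1.37 and 1.23 CPM in control libraries. Its groups did not overlap, as in 16.1% of all tested genes in this direction, and it did not pass (log2 fold change 0.50 ± 0.24, edgeR adjusted p = 0.209). DDX39B, an RNA helicase gene on the other side of MICB, had 28.7 ± 11.4 CPM in knockout cells and 25.2 ± 9.36 CPM in control cells (SD, n = 3 each) and did not pass (log2 fold change 0.19 ± 0.29, adjusted p = 0.729). At the ULBP cluster, the pseudogene RAET1K between ULBP2 and ULBP3 was at 0.294 ± 0.143 CPM in knockout cells and 0.488 ± 0.149 CPM in control cells and did not pass (-0.70 ± 0.48, adjusted p = 0.383). MTHFD1L, a mitochondrial folate enzyme gene beyond ULBP3, had 55.5, 63.0 and 57.6 CPM in knockout libraries, against 82.3, 86.6 and 81.4 CPM in control libraries. MTHFD1L changed by -0.51 ± 0.07 on the log2 scale (adjusted p = 0.00302).

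When the median fold change of the 20 neighbours was subtracted from each gene in the edgeR fit, an alternative chosen after seeing the data, 7.43% of all tested genes passed and MICB did not. MICB was then at 0.11 ± 0.08 (SE, adjusted p = 0.426). ULBP2 was at 0.48 ± 0.13 (adjusted p = 0.0523), just short of the threshold and with neighbours on the opposite side of 0. MICA was at -0.16 ± 0.15 (adjusted p = 0.574), ULBP3 at 0.10 ± 0.23 (adjusted p = 0.835) and RAET1G at 0.58 ± 0.21 (adjusted p = 0.133). Among the adjacent genes, HCP5 was at 0.64 (adjusted p = 0.0539) and lost its call also with 5 or 20 neighbours a side (adjusted p up to 0.0736). HLA-B was at 0.40 (adjusted p = 0.00713), but at 0.19 with 5 neighbours a side, where its call was lost (adjusted p = 0.114). MTHFD1L was at -0.27, where its call was lost (adjusted p = 0.0570), and kept its call with 5 or 20 neighbours a side (-0.33 and -0.34). The errors do not include that of the neighbour median, which is itself estimated from these libraries.

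**Figure D2:**
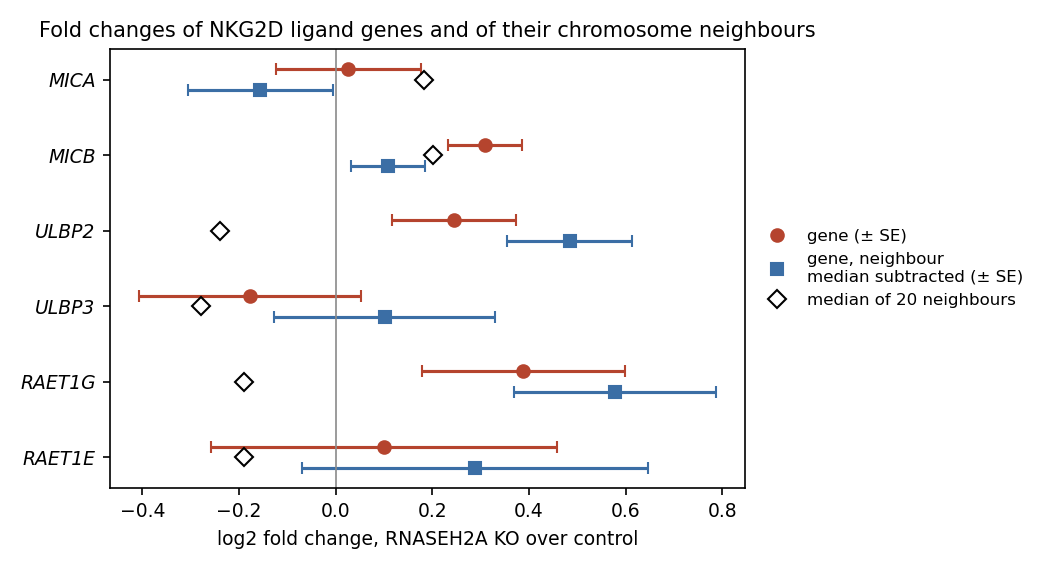
Log2 fold change, RNASEH2A KO over control (horizontal axis), of 4 counted ligand genes, RAET1G and RAET1E. Circles are the edgeR values ± SE, squares the values ± SE with the neighbour median subtracted, and open diamonds the median of 20 neighbouring tested genes. The MICB circle (0.31) lies close to its neighbours (0.20), and the ULBP2 circle (0.24) lies across 0 from its neighbours (-0.24).

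**Figure D3:**
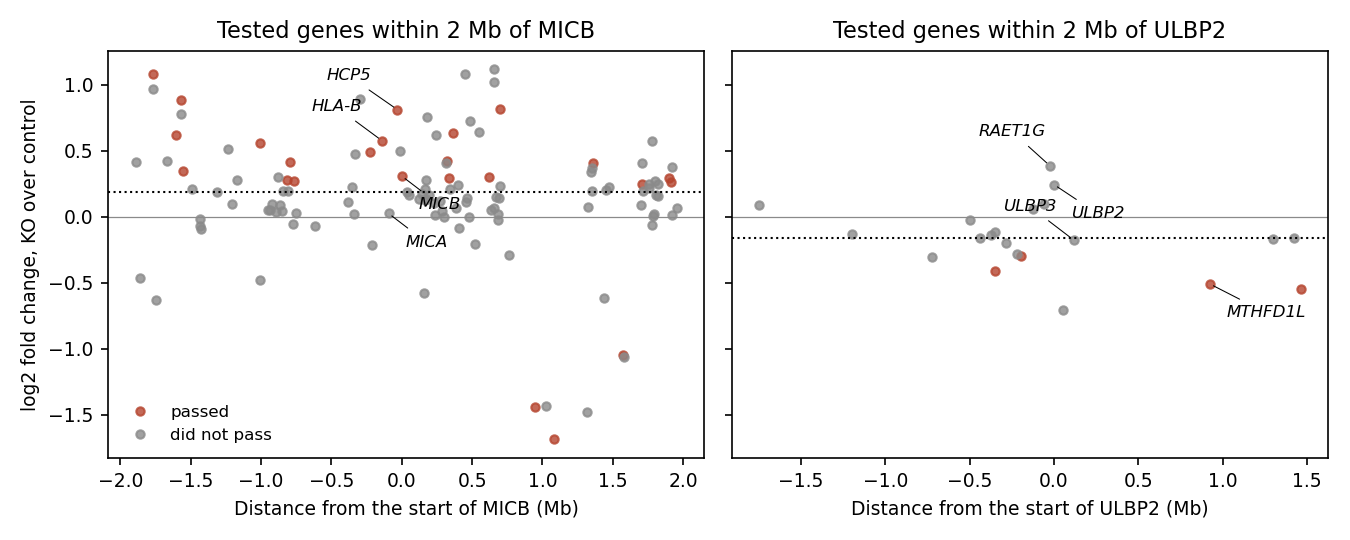
Log2 fold change, knockout over control (vertical axis), of each tested gene within 2 Mb of the start of MICB or of ULBP2, by distance in Mb (horizontal axis). Red points passed the edgeR test and grey points did not, and the dotted line is the median of the panel. Most points near MICB lie above 0 and most near ULBP2 lie below it, with ULBP2 and RAET1G above the points around them.

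The amount of ligand on a cell also depends on its release from the surface by proteases, which RNA does not measure. Of 8 tested genes of ligand shedding 2 rose, 0 fell and 6 did not pass, with a median log2 fold change of 0.08. Over all tested genes 5.88% were called higher and 6.22% lower. MMP14, a membrane-type matrix metalloprotease that can cleave MICA, had 747.9, 979.9 and 963.9 CPM in knockout libraries, against 639.3, 718.9 and 690.5 CPM in control libraries. MMP14 rose by 0.39 ± 0.10 on the log2 scale (SE, edgeR adjusted p = 0.0322), with no overlap of the groups, as in 16.1% of all tested genes in this direction. ADAM17, a sheddase of MIC and ULBP proteins, had 58.3, 51.1 and 55.1 CPM in knockout libraries, against 45.4, 44.5 and 45.6 CPM in control libraries. ADAM17 rose by 0.28 ± 0.08 (adjusted p = 0.0405). With the neighbour median subtracted neither passed, at 0.18 (adjusted p = 0.325) for MMP14 and 0.19 (adjusted p = 0.159) for ADAM17. The MMP14 call was also lost without control library 1, 2 or 3 or knockout library 2 or 3 (adjusted p up to 0.149). The ADAM17 call was also lost without control library 1, 2 or 3 or knockout library 3 (adjusted p up to 0.163).

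Among 21 genes reported to regulate the ligands, from damage kinases to transcription factors and histone modifiers, 0 rose, 1 fell and 20 did not pass, with a median of 0.05. Over all tested genes 12.1% passed in either direction. The gene that fell was ATR, the replication stress kinase, with 39.5, 40.6 and 39.8 CPM in knockout libraries, against 46.5, 48.1 and 51.1 CPM in control libraries. ATR changed by -0.28 ± 0.07 on the log2 scale (edgeR adjusted p = 0.0357), and by -0.15 (adjusted p = 0.254) with the neighbour median subtracted. The ATR call was lost without control library 1, 2 or 3, without knockout library 2 or 3 (adjusted p up to 0.175), and without the filter on low counts (0.0621). None of the 5 genes of the GPI transamidase, which attaches the anchor of ULBP proteins, passed in edgeR, DESeq2 or limma-voom, and 1 had an unadjusted p under 0.05 in each. In edgeR it was PIGK, the catalytic subunit, at 63.5 ± 2.13 CPM in knockout cells and 72.6 ± 0.735 CPM in control cells (SD, n = 3 each, log2 fold change -0.19 ± 0.06, edgeR adjusted p = 0.0852). PIGS, another subunit, stood at 100.6 ± 7.49 CPM in knockout cells and 112.3 ± 10.9 CPM in control cells (-0.16 ± 0.09, adjusted p = 0.277).

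NK cells weigh NKG2D ligands against ligands of their other receptors. Of 12 tested genes for such ligands 1 rose, 3 fell and 8 did not pass, with a median of 0.04. Over all tested genes 5.88% were called higher and 6.22% lower. HLA-E, the ligand of the inhibitory receptor CD94/NKG2A, had 698.5, 955.4 and 976.7 CPM in knockout libraries, against 481.1, 658.1 and 644.3 CPM in control libraries. HLA-E rose by 0.56 ± 0.14 on the log2 scale (SE, edgeR adjusted p = 0.0345), and the call was lost without control library 1, 2 or 3 or knockout library 2 or 3 (adjusted p up to 0.158). With the neighbour median subtracted it was at 0.46 (adjusted p = 0.0859).

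SLAMF7, a receptor that binds itself on a facing cell, had 2.43, 0.791 and 0.571 CPM in knockout libraries, against 8.17, 7.37 and 7.46 CPM in control libraries. SLAMF7 changed by -2.57 ± 0.40 (SE, edgeR adjusted p = 0.00446) and kept its call in all 17 alternative fits. CADM1, the ligand of CRTAM, had 6, 4 and 4 counts in knockout libraries, against 14, 50 and 34 counts in control libraries (-2.87 ± 0.56, adjusted p = 0.0117). Its call was lost without control library 2 or 3 or knockout library 3 (adjusted p up to 0.0698). NECTIN3, an adhesion molecule of the nectin family, had 60.8, 70.2 and 64.2 CPM in knockout libraries, against 73.7, 84.9 and 84.6 CPM in control libraries (-0.32 ± 0.08, adjusted p = 0.0390). Its call was lost without control library 2 or 3 or knockout library 3 (adjusted p up to 0.168).

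**Figure D4:**
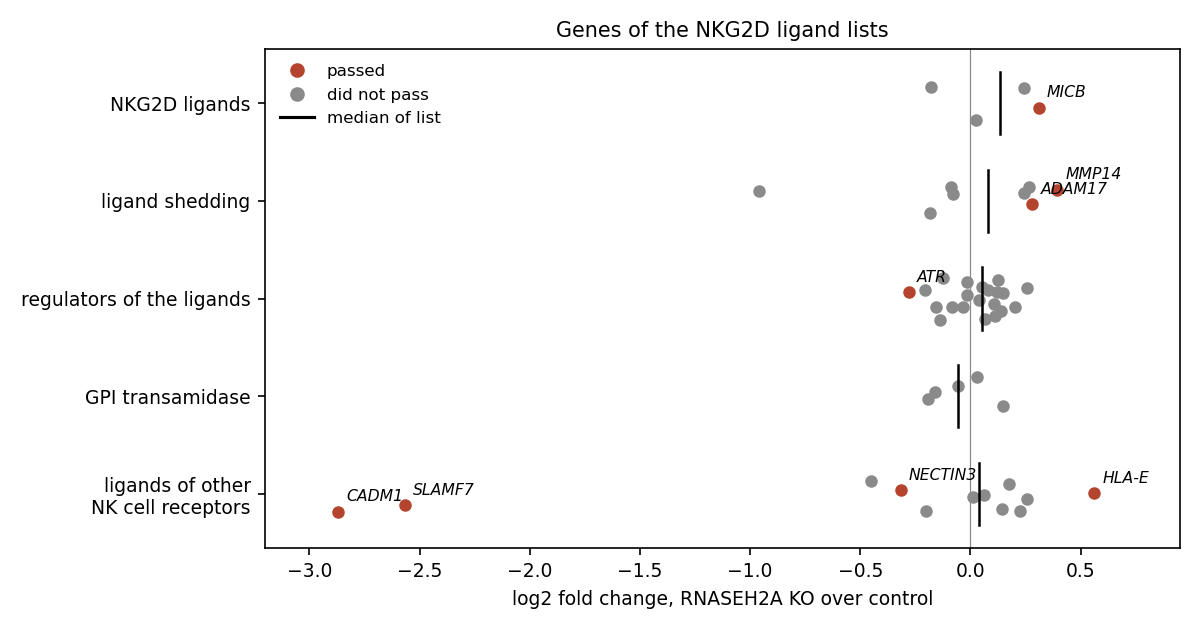
Log2 fold change, RNASEH2A KO over control (horizontal axis), of the tested genes of 5 lists (rows, with points spread vertically for legibility). Red points passed the edgeR test and are named, grey points did not pass, and black lines are list medians. The medians lie between -0.06 and 0.14, and SLAMF7 and CADM1 lie far to the left.

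Markers of other cells were set beside these values. The summed level of the 11 counted lymphocyte markers ran from 2.10 to 2.44 CPM in knockout libraries and from 1.59 to 2.31 CPM in control libraries, mostly from CD8A. CD8A stood at 2.14 ± 0.272 CPM in knockout cells and 1.598 ± 0.501 CPM in control cells (SD, n = 3 each, log2 fold change 0.41 ± 0.27, edgeR adjusted p = 0.366). Of 5 fibroblast markers 4 were counted, and PDGFRA had 0 counts in all 6 libraries. Their summed level ran from 41.7 to 84.1 CPM in knockout libraries and from 38.4 to 44.9 CPM in control libraries, mostly from COL1A2 (log2 fold change 0.56, adjusted p = 0.149) and PDGFRB (0.56, adjusted p = 0.163). Without knockout library 1, the highest of the 6 for both genes, the log2 fold changes were 0.26 for COL1A2 (adjusted p = 0.275) and 0.20 for PDGFRB (adjusted p = 0.351). COL1A2 passed without knockout library 2 (0.80, adjusted p = 0.0230), and without the filter on low counts both COL1A2 (adjusted p = 0.00569) and PDGFRB (0.0154) passed. The part of these markers in the ligand values was not tested. Of the 6 tested carcinoma line markers 0 rose and 1 fell, KRT18, a simple epithelial keratin gene (-0.28 ± 0.06, adjusted p = 0.0130). Over all tested genes 6.22% were called lower. The KRT18 call was lost without control library 2 or 3 or knockout library 3 (adjusted p up to 0.0843).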

How the data were processed

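Messenger RNA libraries made by poly-A enrichment with strand information, per the labels' protocols, gave the 6 samples. Quality control used FastQC, alignment used STAR 2 and the build was GRCh38, per the submitters' processing notes. The sources used here name no counter, strand setting or annotation. The deposited table of raw counts per gene symbol was used for all main results, and the deposited log2 CPM table, whose filter and prior count have no stated source, only for an alternative. No 2 libraries of a group agreed within counting noise (chi-square per degree of freedom of 2.48 or more). Library 1 stood furthest apart in each group. In knockout cells its values were 37.05 and 24.02, against 6.946 between libraries 2 and 3. In control cells they were 12.13 and 10.8, against 2.48. Passages are the replicates, so p-values measure the spread between them. Many low counts were even numbers, so reads may have been counted in pairs, and low counts are then less precise than their size implies.

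Genes were kept by filterByExpr (14199), scaled by TMM and tested with the quasi-likelihood F test of edgeR 4.0.16 in R 4.3.3, knockout over control, with no covariate. P-values are two-sided and Benjamini-Hochberg adjusted over all tested genes, and called under 0.05. The SE of a fold change is its size over the square root of F, and its 95% interval uses the fit's degrees of freedom. The fit was checked on simulated counts, with changes larger than that of MICB and the same spread for all genes. That check does not cover changes as small as that of MICB. Positions came from RefSeq GRCh38.p14 (99.2% of tested genes matched by symbol), exons and transcripts from GENCODE 29. The 4 counted genes all matched the RefSeq promoter table. Named genes were the ligands, the RNase H2 subunit genes, adjacent tested genes, the 3 most similar profiles per ligand, and per list up to 6 that passed with the smallest p, or 2 where none passed. The members and lists were chosen with earlier results of these data known. Alternatives were DESeq2 1.42.0, limma-voom (limma 3.58.1), RLE factors, library size only, a mean of 1 CPM as the filter or no filter, a block for the replicate number, limma on the deposited log2 CPM, leaving out each library, and subtraction of the median of 5, 10 or 20 neighbours a side. No list was tested as a set.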

Additional observations from a re-analysis of the deposited data

How the results depend on the processing

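Library 1 stood furthest apart in each group and was the lowest of its group for all 4 ligands. Whether the replicate numbers mark pairs is not known. Deviations of equally numbered libraries correlated at 0.32, 0.14 and 0.09. No values for unequal numbers stand beside these, so they do not decide whether the numbers mark pairs. With the number as a replicate block 3099 genes passed, against 1718 without it, and the ligand log2 fold changes were 0.03 (MICA), 0.31 (MICB, adjusted p = 0.00420), 0.25 (ULBP2, adjusted p = 0.0681) and -0.20 (ULBP3). Under the block the MICB to MICA log2 ratio differed by 0.28 and the MIC to ULBP log2 ratio by 0.11, and no call among the ligands changed, while PDGFRB gained a call (adjusted p = 0.00791). Leaving out each library moved the number of called genes between 524 and 3430 and of called ligands between 0 and 1. It moved the log2 fold change of MICA between -0.12 and 0.14, MICB between 0.24 and 0.35, ULBP2 between 0.13 and 0.33, ULBP3 between -0.359 and 0.0617, RAET1E between -0.28 and 0.28, and DDX39B between -0.18 and 0.54. It moved the MICB to MICA ratio between 0.20 and 0.41 and the MIC to ULBP ratio between 0.01 and 0.17. With the neighbour median subtracted, 10, 5 and 20 genes a side (chosen after seeing the data), 0 ligands passed. MICB was then at 0.11, 0.14 and 0.13, and MICA at -0.16, -0.46 and -0.15. ULBP3 was at 0.10 with 10 a side, PIGK at 0.0225 with 5 a side, and DDX39B at -0.006, -0.006 and -0.0073. Genes called numbered 1055 with 10 a side and 981 with 20. The cause was not tested. DESeq2, limma-voom, other scalings and filters, and the deposited log2 CPM kept the direction of all 4 ligands and the MICB call. For 21 other named genes, 296 of 355 alternative values kept direction and side of the threshold, 48 lost and 4 gained a call, and 7 changed sign. The depth of MICB (2566 or more counts in each library) does not limit it, whereas RAET1L, with at most 8 counts, is limited by depth.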
